A study of Mus musculus with 8 samples.

Results

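Microglia with low surface CD11c were compared between PRMT1Cx3cr1-KO and PRMT1FL mice on a cuprizone (CPZ) diet. Cuprizone binds copper and is toxic to oligodendrocytes, so that the brain loses myelin. The comparison rests on 2 of the 8 RNA-seq libraries of the series, 1 PRMT1Cx3cr1-KO and 1 PRMT1FL library, and on the 11712 of 25168 genes whose deposited values averaged at least 10 over both. The gene nearest above that limit, 5430416N02Rik, had 4 and 17 reads (PRMT1Cx3cr1-KO and PRMT1FL), and Ndufa11b, nearest below, had 9 and 11. PRMT1Cx3cr1-KO mice were homozygous for a floxed Prmt1 allele and carried a cx3r1cre-ert2 driver, a tamoxifen-inducible Cre recombinase expressed in microglia and other cells that use the Cx3cr1 promoter. PRMT1FL mice carried the floxed allele without the driver, and by the study's methods both genotypes were given tamoxifen. The driver and the loss of Prmt1 therefore cannot be told apart. The strain was C57BL/6. By the labels the mice were 4 to 6 weeks old when given a diet with 0.2% cuprizone, and the time label of both libraries was 5 weeks. The study's methods, which place tamoxifen before the diet, make the mice older than that at its start. Cells were sorted as CD11b+/CD45inter and then by CD11c, the product of Itgax. By the study's flow cytometry, the share of CD11c+ microglia on CPZ was smaller in PRMT1Cx3cr1-KO than in PRMT1FL mice. The CD11c low gate may therefore hold unlike fractions of the microglia of each genotype. The other libraries were PRMT1FL CPZ CD11c high (1), PRMT1Cx3cr1-KO normal diet (2) and PRMT1FL normal diet (3), the normal-diet samples with a time label of 11 weeks. Whether any library came from 1 mouse or a pool was not given in the sources used here.

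PRMT1 is the main enzyme that places asymmetric dimethyl marks on arginines of histone H4 and of many RNA-binding and signalling proteins, and its histone mark accompanies active promoters. Microglia, the resident macrophages of the brain, change state around damaged myelin. Some take up lipid debris, some respond to interferon, and some load peptides on major histocompatibility complex (MHC) class II for helper T cells. Which of these programmes differed between the genotypes among CD11c low cells is the question the comparison addresses.

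Each genotype had 1 library, so the difference had no replicate check of its own. Its spread was borrowed from the normal-diet libraries in a limma fit over all 8, which assumes that the lone CPZ libraries vary as those did. A gene was called at a Benjamini-Hochberg adjusted p under 0.05 with an absolute log2 fold over 1. Folds are PRMT1Cx3cr1-KO over PRMT1FL on the scale log2(normalised reads + 1), and normalised reads are reads divided by a size factor per library. Bracketed ratios give the exact 95% interval for counting error alone. Reads on genes numbered 2936294 in PRMT1Cx3cr1-KO CPZ CD11c low, 3470142 in PRMT1FL CPZ CD11c low, and 1579950 to 3520015 in the other 6 libraries. Homeostatic microglia markers checked the cell type: all 32 passed the filter, and they summed to 14350 reads per 1000000 (RPM) in PRMT1Cx3cr1-KO and 12230 in PRMT1FL. The PRMT1FL CPZ CD11c low library stood apart in makeup. It held the largest summed level of neutrophil, endothelial, mural, astrocyte and oligodendrocyte markers of the 8, as described further on. The fold between the 2 CPZ CD11c low libraries leaned with transcript length, its median being -0.21 in the shortest 20% of transcripts and 0.25 in the longest 20%, against -0.06 and 0.05 for the genotype difference on normal diet. By GC content it was 0.23 in the lowest 20% and -0.16 in the highest 20%. Genes called higher had a median transcript length of 5121 bases and genes called lower 3000, beside 3005 over all genes tested. With the trend by length and GC removed, 62 of the 71 calls named in the text held, and H2-Ab1, Cd74, Zmat3, Itgav, Tlr13, Il7r, Nfkbib, Tjp1 and St8sia4 came under the fold limit.

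Prmt1 itself, the targeted gene (NR_045521, chromosome 7, 44976755 to 44986420, minus strand, mouse build GRCm38), was read in both libraries, with 85 reads in PRMT1Cx3cr1-KO and 158 in PRMT1FL (ratio 0.686, 95% interval 0.521 to 0.899). It did not pass the test (log2 fold -0.54 ± 0.255, SE, limma adjusted p = 0.257). The deleted exons were not counted apart from the rest, so this value does not check the deletion.

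Of the 11712 genes tested, 56 (0.478%) were higher and 111 (0.948%) lower in PRMT1Cx3cr1-KO, 1.43% in either direction. The genes called higher included innate immune receptors of the Toll-like and TREM families, genes of the oxidative stress response and several zinc finger genes. The falls included neutrophil granule genes, endothelial and other vascular genes, the activity-induced gene Nr4a3 and MHC class II genes. The PRMT1Cx3cr1-KO value was the lowest of all 8 libraries in 86 of the 111 genes called lower (77.5%, against 12.4% of all genes tested) and the highest of 8 in 28 of the 56 called higher (50.0%, against 13.3%). Since the call used that value, these shares only describe the calls. In 5 of the genes called lower (Nbl1, Egr3, H2-Ab1, Nfe2 and Tbx3) the 3 PRMT1Cx3cr1-KO libraries of both diets all lay below the 5 PRMT1FL libraries, as in 1.94% of all genes tested.

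The count of calls depended on which normal-diet library supplied the spread. It was 7 without PRMT1FL replicate 3, 25 without PRMT1FL replicate 2, 438 without PRMT1FL replicate 1, and 88 or 87 without PRMT1Cx3cr1-KO replicate 1 or 2. It was 203 without the PRMT1FL CPZ CD11c high library. The share of calls that were higher was 33.5%, and 44.6% under TMM scaling and 48.8% under quantile normalization. Of the genes called, 1 higher and 24 lower ones had a mean under 10 on normal diet, so that the spread borrowed for them rests on few reads.

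**Figure D1:**
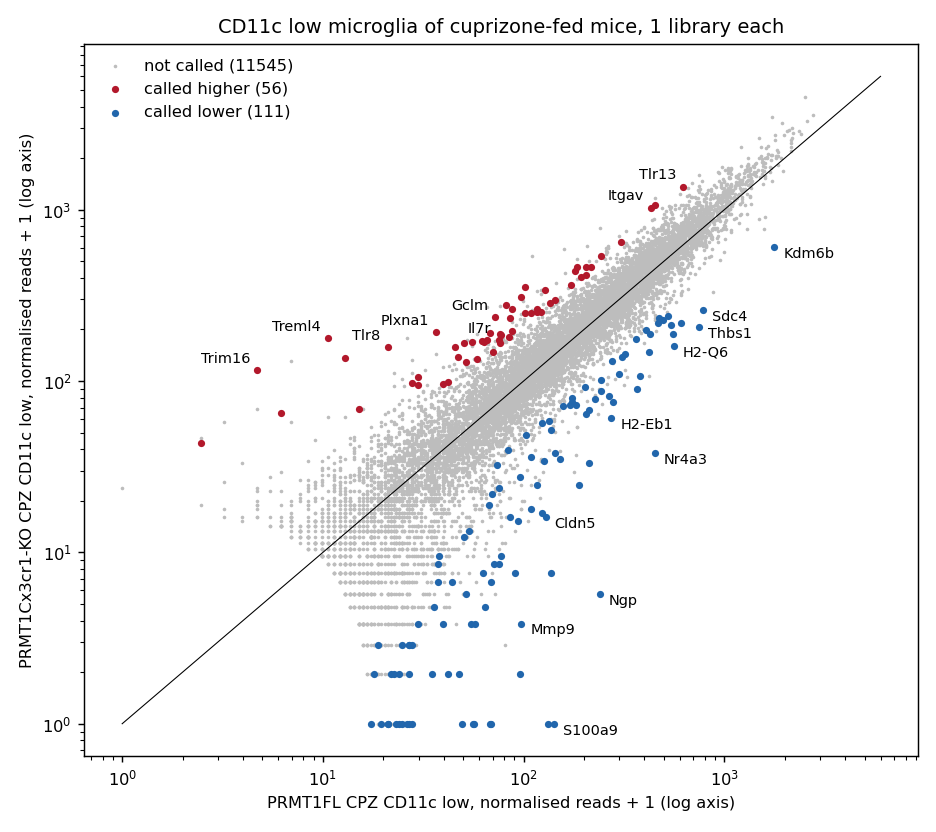
Normalised reads plus 1 of each gene tested in PRMT1Cx3cr1-KO (vertical, log axis) and PRMT1FL (horizontal, log axis) CPZ CD11c low microglia, 1 library each, with the line of equal values. The 56 genes called higher (red) lie above the line, with Trim16 and Treml4 farthest from it among those labelled, and the 111 called lower (blue) include genes at 0 reads in PRMT1Cx3cr1-KO along the bottom.

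The genes of MHC class II molecules were among those that fell in PRMT1Cx3cr1-KO. Of 13 list members tested, 4 were called lower and 0 higher (30.8%, against 0.948% of all genes tested), with a median log2 fold of -0.59 beside 0.02 over all genes. They were genes of classical class II chains, H2-Aa and H2-Ab1 (I-A) and H2-Eb1 (I-E beta), together with Cd74, the invariant chain that guides class II through the cell. RNA values do not show which class II molecules these mice made. H2-Eb1 (NM_010382, chromosome 17, 34305867 to 34316674) had 59.6 normalised reads in PRMT1Cx3cr1-KO and 273 in PRMT1FL CPZ CD11c low. It had 493 in PRMT1FL CPZ CD11c high, 126 and 244 in PRMT1Cx3cr1-KO on normal diet, and 232, 279 and 239 in PRMT1FL on normal diet. The PRMT1Cx3cr1-KO CPZ library was thus the lowest of all, at a ratio of 0.218 (95% interval 0.164 to 0.286) and a log2 fold of -2.18 ± 0.359 (SE, limma adjusted p = 0.0327). H2-Aa had 79 reads in PRMT1Cx3cr1-KO and 374 in PRMT1FL (ratio 0.269, 0.209 to 0.344, log2 fold -1.88, adjusted p = 0.0275). H2-Ab1 had 151 and 432 reads in the same order (log2 fold -1.16, adjusted p = 0.0418) and Cd74 had 240 and 665 (log2 fold -1.12, adjusted p = 0.0363). For these 4 genes the PRMT1Cx3cr1-KO CPZ library was the lowest of the 8 and PRMT1FL CPZ CD11c high the highest. The CD11c high library, the smallest at 1579950 reads, was also the highest for abundant genes of other roles, such as Cx3cr1 (4369 normalised reads), Irf8 (2092) and Canx (1694).

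These 4 calls were lost without PRMT1FL normal-diet replicate 2 (limma adjusted p from 0.0621 to 0.0772) and without replicate 3 (0.0607 to 0.0718). They were also lost when no filter on low values was used (0.0927 to 0.124), and those of H2-Ab1 and Cd74 when the length and GC lean was removed. Other antigen-presenting cells could hold these transcripts. The 24 monocyte and border macrophage markers summed to 1461 RPM in PRMT1Cx3cr1-KO and 1253 in PRMT1FL, and the 15 dendritic cell markers to 788.5 and 899. The dendritic cell list had 4 of 15 genes at 0 reads in PRMT1Cx3cr1-KO and 1 in PRMT1FL. Fscn1, an actin bundler on that list which microglia also express, had 1244 and 1462 reads (log2 fold 0.12), and Siglech, shared with microglia, had 812 and 1212 (log2 fold -0.23). Neither was called. Together Fscn1 and Siglech held most of the dendritic cell sum, and folds of the 6 list genes tested ranged from -2.65 to 0.12. Stab1, on the monocyte list, had 1698 and 1600 reads, and 1646 to 1904 normalised reads on normal diet. The sums therefore cannot show whether other antigen-presenting cells differed. Fewer cells of a type and less RNA per cell cannot be told apart in bulk samples.

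The promoters of called genes are shown because members of the class II family carry a shared element there. Each sequence holds the 150 bases before the RefSeq start (GRCm38.p6), written 5′ to 3′ along the gene, with matches in capitals. The Y box, CTGATTGG or CCAATCAG on the other strand, is bound by the factor NF-Y at class II promoters. It occurs in 3.16% of the 32851 mouse promoters of this length. The motif TGACGTCA, the same on both strands, resembles the X2 box and occurs in 1.36%. No match overlapped another.
H2-Eb1 (chr17:34305717-34305866, plus strand): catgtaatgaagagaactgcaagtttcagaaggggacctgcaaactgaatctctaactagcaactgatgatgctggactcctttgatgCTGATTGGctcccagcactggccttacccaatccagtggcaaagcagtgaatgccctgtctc
H2-Aa (chr17:34287824-34287973, minus strand): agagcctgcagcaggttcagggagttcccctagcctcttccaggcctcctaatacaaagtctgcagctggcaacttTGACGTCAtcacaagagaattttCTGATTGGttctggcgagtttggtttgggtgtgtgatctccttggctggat
H2-Q6 (chr17:35424700-35424849, plus strand): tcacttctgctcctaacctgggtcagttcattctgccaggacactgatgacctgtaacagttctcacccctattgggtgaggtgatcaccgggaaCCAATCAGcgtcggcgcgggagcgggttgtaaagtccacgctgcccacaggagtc
H2-Eb1 held the Y box 62 bases before the start and H2-Aa 51 bases before it, with TGACGTCA 74 bases before. H2-Q6, an MHC class I gene, held the reverse Y box 55 bases before the start. Over the class II list, 4 of 10 genes with a promoter in the table held a Y box and 1 held TGACGTCA. A match is a description of letters only.

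The 8 genes whose promoters the study displayed (Ikbke, Gadd45b, Irf1, Csf1, Itgax, H2-Ab1, H2-Eb1 and H2-Aa) were all lower in value in PRMT1Cx3cr1-KO (median log2 fold -1.04). The class II genes above were the 3 of them called lower (37.5%, against 0.948% of all genes tested). The study chose this set on samples of the same groups, so it is not independent evidence of direction. Itgax, the gene of the sorted protein, had 365 reads in PRMT1Cx3cr1-KO and 884 in PRMT1FL (ratio 0.527, 0.465 to 0.596) without passing the test (log2 fold -0.92, limma adjusted p = 0.114). Ikbke, a kinase of the interferon response, had 35 and 163 (-1.84, adjusted p = 0.12). Gadd45b, a stress sensor, had a log2 fold of -0.64 (adjusted p = 0.066), Irf1 one of -0.53 (0.148) and the growth factor gene Csf1 one of -0.22 (0.593). None of the 3 calls held without PRMT1FL normal-diet replicate 2 or 3.

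Interferon-stimulated genes had 2 of 73 tested members called lower and 0 higher, 2.74% against 0.948% of all genes, while 60 of the 73 had folds below 0 and the median was -0.54. Oas2, a sensor of viral RNA that activates RNase L, had 88.9 normalised reads in PRMT1Cx3cr1-KO and 366 in PRMT1FL CPZ CD11c low, against 371 in PRMT1FL CPZ CD11c high and 27.8 to 55.4 in the 5 normal-diet libraries. Both PRMT1FL CPZ libraries were therefore high, with PRMT1Cx3cr1-KO nearer to normal diet (log2 fold -2.03 ± 0.415, SE, limma adjusted p = 0.0483). Gbp5, a GTPase that assists inflammasome assembly, had 63.4 and 204 normalised reads in PRMT1Cx3cr1-KO and PRMT1FL (log2 fold -1.67, adjusted p = 0.0315), but 87.3 in PRMT1FL CPZ CD11c high and 116 to 164 on normal diet. Its promoter held a kappaB site (GGGAA and TTCC with 1 base between them, read on either strand), the binding letters of NF-kB, 77 bases before the start, a motif found in 0.17% of promoters of this length and in 1 of the 32 NF-kB list genes with a promoter in the table. An interferon response element (GAAA and GAAA with 2 bases between them, read on either strand) was found in 25 of 59 interferon-stimulated genes and in 1.59% of promoters. The Gbp5 promoter is shown with the kappaB match in capitals.
Gbp5 (chr3:142496784-142496933, plus strand): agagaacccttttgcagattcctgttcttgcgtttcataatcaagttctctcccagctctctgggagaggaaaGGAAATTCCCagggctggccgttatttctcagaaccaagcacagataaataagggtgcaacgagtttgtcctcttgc
Oas2 and Gbp5 lost their calls without PRMT1FL normal-diet replicate 2 (adjusted p 0.0621 and above) or replicate 3, and Oas2 also without either PRMT1Cx3cr1-KO normal-diet library.

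MHC class I and peptide loading genes had 1 of 26 members called lower (3.85%, against 0.948% of all genes tested). It was H2-Q6, with 168 reads in PRMT1Cx3cr1-KO and 756 in PRMT1FL (log2 fold -1.81 ± 0.221, SE, limma adjusted p = 0.0155). It shares reads with near-identical class I genes, so its value is uncertain, and without PRMT1FL normal-diet replicate 3 its adjusted p was 0.0607. The list median was -0.38, with 20 members below 0. The most abundant loading factors were not called: Canx, a glycoprotein chaperone, had 1376 and 1452 reads in PRMT1Cx3cr1-KO and PRMT1FL (log2 fold 0.27) and Tapbp, which tethers class I to the peptide transporter, had 975 and 1261 (-0.02). Among interferon regulatory factors and STATs, 1 of 14 was called lower (7.14%), Irf4, with 22 and 92 reads (log2 fold -1.67, adjusted p = 0.0315). Its value was also low in PRMT1FL CPZ CD11c high (21.3 normalised reads, against 20.8 in PRMT1Cx3cr1-KO) and 130 to 174 on normal diet. Without any 1 of the normal-diet libraries other than PRMT1FL replicate 1 its adjusted p lay between 0.0535 and 0.0621. Irf8, a lineage factor of microglia, had a log2 fold of 0.07 and Stat3 one of -0.17, neither called.

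Activity-induced genes split within their list. Of 33 immediate early and dissociation genes, 4 were called lower and 0 higher (12.1%, against 0.948%), while the list median was 0.05. Nr4a3, an orphan nuclear receptor induced by calcium and inflammatory signals (NM_015743, chromosome 4, 48045305 to 48086446), had 39 reads in PRMT1Cx3cr1-KO and 607 in PRMT1FL. Its normalised value was 36.9 in PRMT1Cx3cr1-KO CPZ CD11c low, 450 in PRMT1FL CPZ CD11c low and 272 in PRMT1FL CPZ CD11c high, and between 28.9 and 81.2 on normal diet. PRMT1Cx3cr1-KO on CPZ thus lay within the normal-diet range, unlike both PRMT1FL CPZ libraries (log2 fold -3.57 ± 0.378, SE, limma adjusted p = 0.0104). Dusp2, a nuclear phosphatase of MAP kinases, had 197 and 747 reads in PRMT1Cx3cr1-KO and PRMT1FL (log2 fold -1.57, adjusted p = 0.0331). Egr3, a zinc finger factor induced with Nr4a3, had 71 and 283 (-1.63, adjusted p = 0.0327). Hspa1b, an inducible heat shock protein with a near-identical neighbour Hspa1a, had 223 and 729 (-1.35, adjusted p = 0.0275). None of the 4 was called without PRMT1FL normal-diet replicate 3 (adjusted p 0.0607 to 0.064), and without replicate 2 only Nr4a3 was. Without either PRMT1Cx3cr1-KO normal-diet library Dusp2 and Egr3 were not called.

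NF-kB and cytokine genes had 1 of 39 members called lower (2.56%, against 0.948% of all genes tested). It was Bcl3, a nuclear partner of NF-kB, with 85 reads in PRMT1Cx3cr1-KO and 357 in PRMT1FL (log2 fold -1.71, limma adjusted p = 0.0327). The call was lost without PRMT1FL normal-diet replicate 2 (0.0728) or 3 (0.064). The list median was -0.27. Tnfaip3, the feedback inhibitor A20, had 2313 and 2894 reads (0.03) and Marcks, an actin-binding substrate of protein kinase C, 2186 and 2497 (0.16), neither called. Both were dense in reads (0.657 and 0.597 per base in the higher library), which can narrow a fold where duplicates were removed. No chemokine ligand of 18 was called (median -0.29), with Ccl6 at -0.26 and Cxcl16 at -0.40. Several more signalling genes were low in PRMT1Cx3cr1-KO and were chosen for mention after their values were seen. Kdm6b, a demethylase that removes the repressive H3K27me3 mark and is induced in activated macrophages, had 640 reads in PRMT1Cx3cr1-KO and 2391 in PRMT1FL (ratio 0.341, 0.312 to 0.373, log2 fold -1.55 ± 0.191, SE, adjusted p = 0.0156). Its 605.5 normalised reads were the lowest of 8 libraries, the other 7 lying between 1329 and 1918. The heparan sulphate proteoglycan gene Sdc4 had 272 and 1054 reads (-1.60, adjusted p = 0.0104), and Grk3, a kinase that desensitises receptors, 155 and 565 (-1.51, adjusted p = 0.00653). Sdc4, Kdm6b and Grk3 were called whichever of the other 6 libraries was left out. Thbs1, the matricellular protein thrombospondin, had a log2 fold of -1.85 (adjusted p = 0.0246), Nfkbib, an inhibitor of NF-kB, one of -1.04 (0.0291) and Siglecf, a sialic acid receptor, one of -1.02 (0.0327). Gpr132, a receptor for lysolipids and lactate, had 7 and 184 reads (-4.17, adjusted p = 0.0397), and Rasgrp4, a Ras exchange factor, 7 and 83 (-3.04, adjusted p = 0.0155). H2-K2, which shares reads with other class I genes, was at -1.45 (adjusted p = 0.0372). Without PRMT1FL normal-diet replicate 3 none of these 6 was called (adjusted p from 0.0607 to 0.0679). Without replicate 2, Nfkbib, Siglecf and Gpr132 were not, and without either PRMT1Cx3cr1-KO normal-diet library Siglecf and H2-K2 were not.

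**Figure D2:**
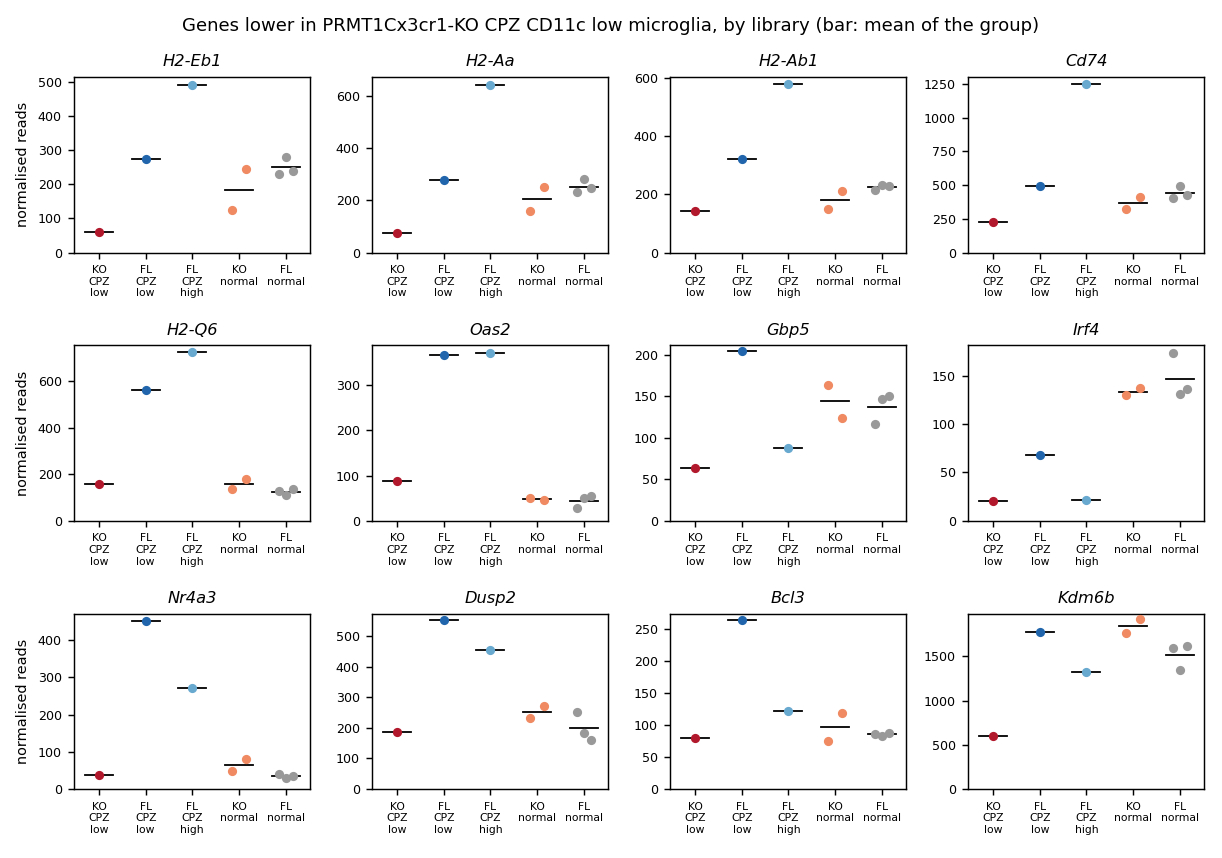
Normalised reads per library (points) of 12 genes called lower, with linear axes from 0 and a bar at the mean of each group, where KO is PRMT1Cx3cr1-KO, FL is PRMT1FL, and low and high are the CD11c gates. H2-Eb1 is lowest in PRMT1Cx3cr1-KO CPZ CD11c low at 59.6, Nr4a3 and Oas2 are high in both PRMT1FL CPZ libraries and not in PRMT1Cx3cr1-KO, and Irf4 is as low in PRMT1FL CPZ CD11c high as in PRMT1Cx3cr1-KO CPZ CD11c low.

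Among the genes that rose were targets of NRF2, the transcription factor that answers oxidative and electrophilic stress. Of 28 tested, 3 were called higher and 0 lower (10.7%, against 0.478% of all genes), with a median of 0.36 and 22 members above 0. Trim16, a galectin-binding ubiquitin ligase active in the autophagy of damaged lysosomes (NM_053169, chromosome 11, 62820253 to 62842948), had 121 reads in PRMT1Cx3cr1-KO and 5 in PRMT1FL. Its normalised value was 114 in PRMT1Cx3cr1-KO CPZ CD11c low, against 3.71 in PRMT1FL CPZ CD11c low and 7.76 in PRMT1FL CPZ CD11c high. On normal diet it was 98.8 and 29.6 in PRMT1Cx3cr1-KO, against 11.6, 12.2 and 15.5 in PRMT1FL. All 3 PRMT1Cx3cr1-KO libraries lay above all 5 PRMT1FL libraries (log2 fold 4.62 ± 0.725, SE, limma adjusted p = 0.0315, ratio 30.9, 95% interval 12.9 to 96.8). Gclm, the modifier subunit of the enzyme that limits glutathione synthesis, had 248 and 96 reads (1.71 ± 0.265, adjusted p = 0.0315, ratio 3.29, 2.59 to 4.22). Osgin1, an oxidative stress-induced growth inhibitor, had 276 and 116 (1.59 ± 0.301, adjusted p = 0.0434).

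An antioxidant response element (TGACNNNGC, or GCNNNGTCA on the other strand), the letters bound by NRF2, lay in the Gclm promoter 134 bases before the start, a motif found in 6.80% of promoters of this length and in 6 of the 26 list genes with a promoter in the table. The promoter is shown with the match in capitals.
Gclm (chr3:122245407-122245556, plus strand): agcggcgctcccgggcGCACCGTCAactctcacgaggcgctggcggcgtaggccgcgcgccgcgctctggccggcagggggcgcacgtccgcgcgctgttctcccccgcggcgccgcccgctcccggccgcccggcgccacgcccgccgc
The Osgin1 promoter held no match to TGACNNNGC on either strand in this window, and other forms of the element were not searched. Without PRMT1FL normal-diet replicate 2 or 3 the 3 calls were lost (adjusted p from 0.0607 to 0.0772), and that of Osgin1 also without PRMT1Cx3cr1-KO normal-diet replicate 1 (0.0506). Aldh1l2, a mitochondrial folate enzyme among 30 ATF4 and amino acid response genes, was the 1 member called (3.33%, against 0.478% of all genes tested called higher). It had 177 and 73 reads in PRMT1Cx3cr1-KO and PRMT1FL (1.61, adjusted p = 0.0478). Its call was lost without any 1 of the normal-diet libraries other than PRMT1FL replicate 1 (adjusted p from 0.0637 to 0.0772). Cebpb and Cebpg, the most abundant members, were at -0.05 and -0.21, and the list median was 0.10.

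A few receptors of innate immunity were called higher. Of 24 Toll-like receptor genes, 2 were called higher and 0 lower (8.33%, against 0.478%), with a median of 0.22. Tlr8, an endosomal receptor for single-stranded RNA, had 156 normalised reads in PRMT1Cx3cr1-KO, against 20.0 in PRMT1FL CPZ CD11c low. It had 62.1 in PRMT1FL CPZ CD11c high and 15.1 to 28.8 in the 5 normal-diet libraries, so PRMT1Cx3cr1-KO on CPZ stood above the other 7 (log2 fold 2.90 ± 0.444, SE, limma adjusted p = 0.0315, ratio 7.79, 5.17 to 12.2). Tlr13, which recognises bacterial ribosomal RNA, had 1441 and 842 reads (1.12, adjusted p = 0.0386). Its PRMT1FL CPZ CD11c low value of 624.6 was the lowest of 8, the normal-diet libraries lying between 888.3 and 1195. Of 19 TREM, TAM and phagocytic receptor genes, 2 were called higher (10.5%), with a median of 0.19. Treml4, a TREM-like receptor that binds dying cells and augments TLR7 signalling (NM_001163795, chromosome 17, 48264295 to 48275358), had 187 reads in PRMT1Cx3cr1-KO and 13 in PRMT1FL. Its normalised value was 177 in PRMT1Cx3cr1-KO, against 9.64 in PRMT1FL CPZ CD11c low and 7.76 in PRMT1FL CPZ CD11c high, with 33.7 and 36.4 in PRMT1Cx3cr1-KO and 16.2 to 26.9 in PRMT1FL on normal diet (4.06 ± 0.460, adjusted p = 0.0136, ratio 18.3, 10.5 to 35.1). A530064D06Rik, which lies beside Treml4 on chromosome 17, had 143 and 16 reads (3.40, adjusted p = 0.0331), with 23.5 and 17.8 normalised reads in PRMT1Cx3cr1-KO and 2.32 to 4.07 in PRMT1FL on normal diet. For these 2 genes as well, all 3 PRMT1Cx3cr1-KO libraries lay above all 5 PRMT1FL libraries. Such a separation was found in 13 of the 56 genes called higher, Cmah, Osgin1 and Aldh1l2 included, and in 1.76% of all genes tested, though the call itself had used the CPZ values. Itgav, the alpha V integrin that activates latent TGF-beta, had 1086 and 580 reads (1.25, adjusted p = 0.0434) and was the 1 called gene among 19 of the TGF-beta pathway (5.26%), while the repressor gene Ski was at 0.06. For Itgav, 1027 normalised reads in PRMT1Cx3cr1-KO lay within the 796 to 1081 of normal diet, against 430 in PRMT1FL CPZ CD11c low. Without PRMT1FL normal-diet replicate 3 none of Tlr8, Tlr13, Treml4, A530064D06Rik and Itgav was called, and without replicate 2 Treml4 alone was. Without either PRMT1Cx3cr1-KO normal-diet library Tlr13, Itgav and A530064D06Rik were not called.

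The other genes with the largest rises over PRMT1FL had varied roles. Plxna1, a semaphorin receptor that pairs with TREM2 and DAP12 on myeloid cells, had 202 reads in PRMT1Cx3cr1-KO and 48 in PRMT1FL (log2 fold 2.39 ± 0.287, SE, limma adjusted p = 0.0155). Cmah, which makes the sialic acid Neu5Gc, had 68 and 7 (3.40, adjusted p = 0.0315). Pdpr, a regulator of pyruvate dehydrogenase, had 72 and 19 (2.2, adjusted p = 0.0443), and Casp8ap2, needed for histone gene expression, 291 and 109 (1.76, adjusted p = 0.0315). Zfp111, Zfp518b and Zfp518a had log2 folds of 1.82, 1.82 and 1.79 (adjusted p from 0.0235 to 0.0327). For Zfp111 the values were 105 normalised reads in PRMT1Cx3cr1-KO, 28.9 in PRMT1FL CPZ CD11c low, 33.0 in PRMT1FL CPZ CD11c high and 109 to 150 on normal diet, so the PRMT1FL CPZ libraries were the low ones. Genes with zinc finger symbols (Zfp, Zkscan, Zscan or Zbtb with a number) were grouped after their values were seen. Of 378, 10 were called higher (2.65%, against 0.478% of all genes tested) and 2 lower (0.529%, against 0.948%), with a median of 0.34. Their median GC content was 45.8%, against 50.2% over all genes tested, and their median length 3654 bases. Zmat3, the 1 called gene among 27 p53 targets (3.7%), had 277 and 156 reads (1.17, adjusted p = 0.0322), while Btg2 and Cdkn1a were at 0.15 and -0.17. Sema4b, P2ry10b, Tjp1 and St8sia4, named after their values were seen, had log2 folds of 1.49, 1.56, 1.23 and 1.41 (adjusted p from 0.0104 to 0.0434). Sema4b, a semaphorin, had 189 normalised reads in PRMT1Cx3cr1-KO, 66.8 in PRMT1FL CPZ CD11c low and 356 to 410 on normal diet. In Pdpr, Zfp518a, Zfp518b and Tjp1 the PRMT1Cx3cr1-KO value lay within the normal-diet range and PRMT1FL CPZ CD11c low below it. For Pdpr they were 68.1 and 14.1, against 44.8 to 79.9, and for Tjp1 1060 and 450, against 992 to 1319. In PRMT1Cx3cr1-KO, Plxna1, Cmah, Casp8ap2, Zmat3 and St8sia4 lay above the normal-diet range and P2ry10b below it. Of the 11 genes described here among those with the largest rises 0 were called without PRMT1FL normal-diet replicate 3, and 2 without replicate 2 (Treml4 and Plxna1), while Pdpr and A530064D06Rik lost their calls without either PRMT1Cx3cr1-KO normal-diet library. Zmat3, P2ry10b, Tjp1 and St8sia4 were not called without PRMT1FL normal-diet replicate 2 or 3, nor Sema4b without replicate 3. Tjp1 and St8sia4 were also lost without either PRMT1Cx3cr1-KO normal-diet library, and Zmat3 (adjusted p = 0.0522) and Pdpr (0.0524) by DESeq2.

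**Figure D3:**
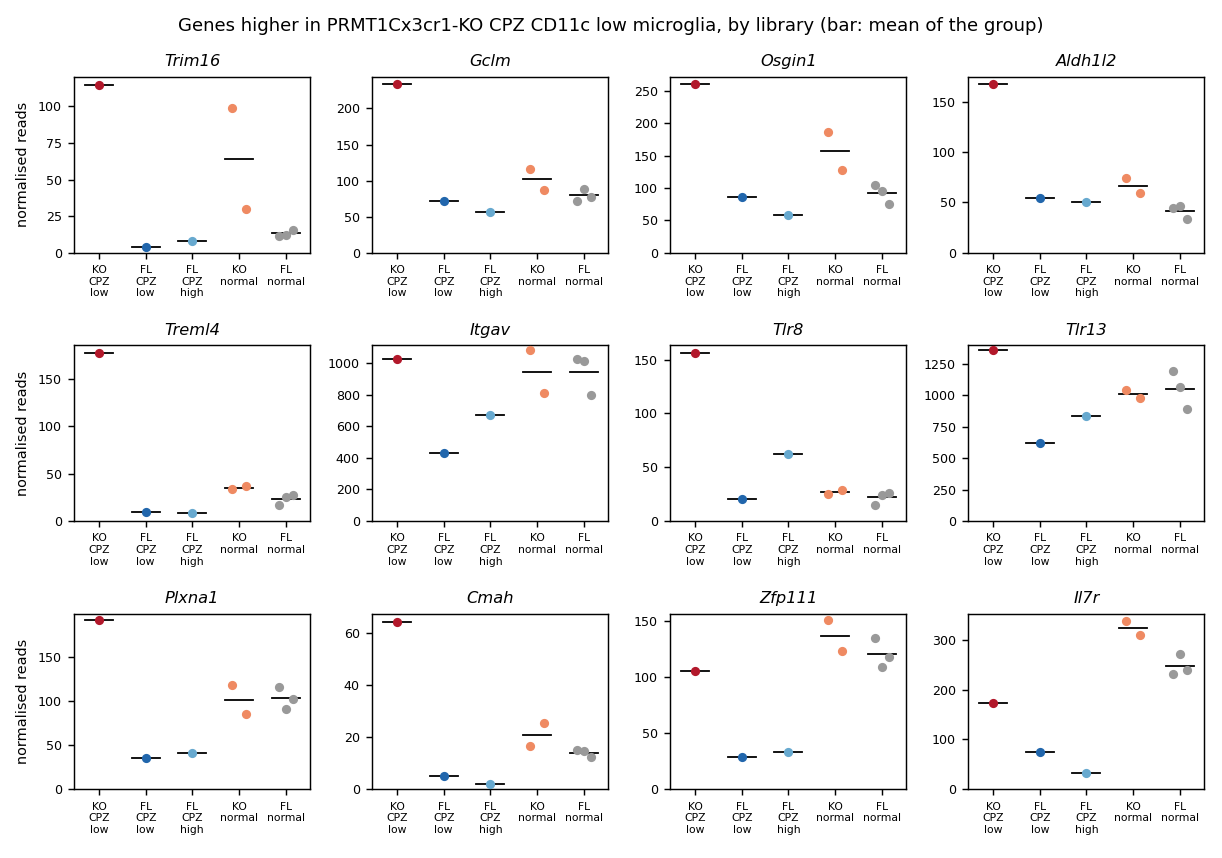
Normalised reads per library (points) of 12 genes called higher, with linear axes from 0 and a bar at the mean of each group, where KO is PRMT1Cx3cr1-KO and FL is PRMT1FL. Trim16 is high in all 3 PRMT1Cx3cr1-KO libraries, Tlr8 in PRMT1Cx3cr1-KO CPZ CD11c low at 156, and for Zfp111 and Il7r the PRMT1FL CPZ libraries lie below those of normal diet.

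No gene of the homeostatic, disease-associated, phagolysosome, lipid, sterol, complement, cell division, oxidative phosphorylation or ribosomal lists was called in limma. Homeostatic genes had 29 of 32 folds above 0 with a median of 0.29, Tgfbr1 at 0.50 and Cx3cr1 at 0.19 (2591 and 2903 reads in PRMT1Cx3cr1-KO and PRMT1FL). Only the PRMT1Cx3cr1-KO mice carry the Cx3cr1 driver. Disease-associated microglia genes had a median of 0.12 over 46 genes. Igf1, a growth factor for myelin-forming cells, had 1397 and 1015 reads (ratio 1.76, 1.62 to 1.91, log2 fold 0.81, adjusted p = 0.214), and the cathepsin gene Ctsb had 2777 and 2931 (0.27). Phagolysosome genes had a median of 0.18 over 43 genes. Lipid handling genes had a median of -0.25, yet their most abundant members lay above 0: the lipoprotein receptor Lrp1 at 0.85 (adjusted p = 0.163) and the cholesterol exporter Abca1 at 0.73 (0.24). Sterol synthesis genes had a median of 0.20, with Srebf1 at 0.19 and Srebf2 at 0.21. Complement and Fc receptor genes had a median of 0.26, with Itgam at 0.34 and C3ar1 at 0.57. Oxidative phosphorylation had a median of -0.12 over 71 genes (Atp5a1 at 0.10, Atp5b at 0.27) and ribosomal proteins one of -0.08 over 65 (Rpl4 at 0.16, Rpl22 at -0.09). The transcripts of these 2 lists are short, with median lengths of 748 and 767 bases. Arginine methyltransferases had 0 of 9 called (median -0.02, Carm1 at 0.09, Prmt9 at -0.03), and histone acetyltransferases with their readers and class I deacetylases 0 of 20 (median 0.08, Ncoa3 at 0.45, Brd2 at 0.04).

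Cell division and DNA replication genes shared a direction without passing the test. Of 48, 42 had folds above 0, the median was 0.42, and the PRMT1Cx3cr1-KO CPZ library held the highest value of all 8 in 39 of them (13.3% of all genes tested did). Mki67, the proliferation antigen Ki-67, had 823 reads in PRMT1Cx3cr1-KO and 322 in PRMT1FL (ratio 3.26, 2.86 to 3.72), with 231 normalised reads in PRMT1FL CPZ CD11c high and 12.5 to 51.6 on normal diet. Its log2 fold of 1.70 ± 0.773 (SE) had limma adjusted p = 0.241. Ccnd1, cyclin D1, had 870 and 705 reads (0.65, adjusted p = 0.0681).

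Glycolysis and hypoxia genes had 2 of 27 called lower (7.41%, against 0.948%), with 14 members below 0 and 13 above. Vegfa, the vascular growth factor induced by hypoxia, had 112 reads in PRMT1Cx3cr1-KO and 513 in PRMT1FL (log2 fold -1.83, limma adjusted p = 0.0322), with 444 normalised reads in PRMT1FL CPZ CD11c high and 27.8 to 59.2 on normal diet. Aldoc, an aldolase of astrocytes that is on the astrocyte list as well, had 54 and 183 (-1.39, adjusted p = 0.0478). Neither was called without PRMT1FL normal-diet replicate 2 or 3 (adjusted p from 0.0607 to 0.0774), nor was Aldoc without either PRMT1Cx3cr1-KO normal-diet library.

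**Figure D4:**
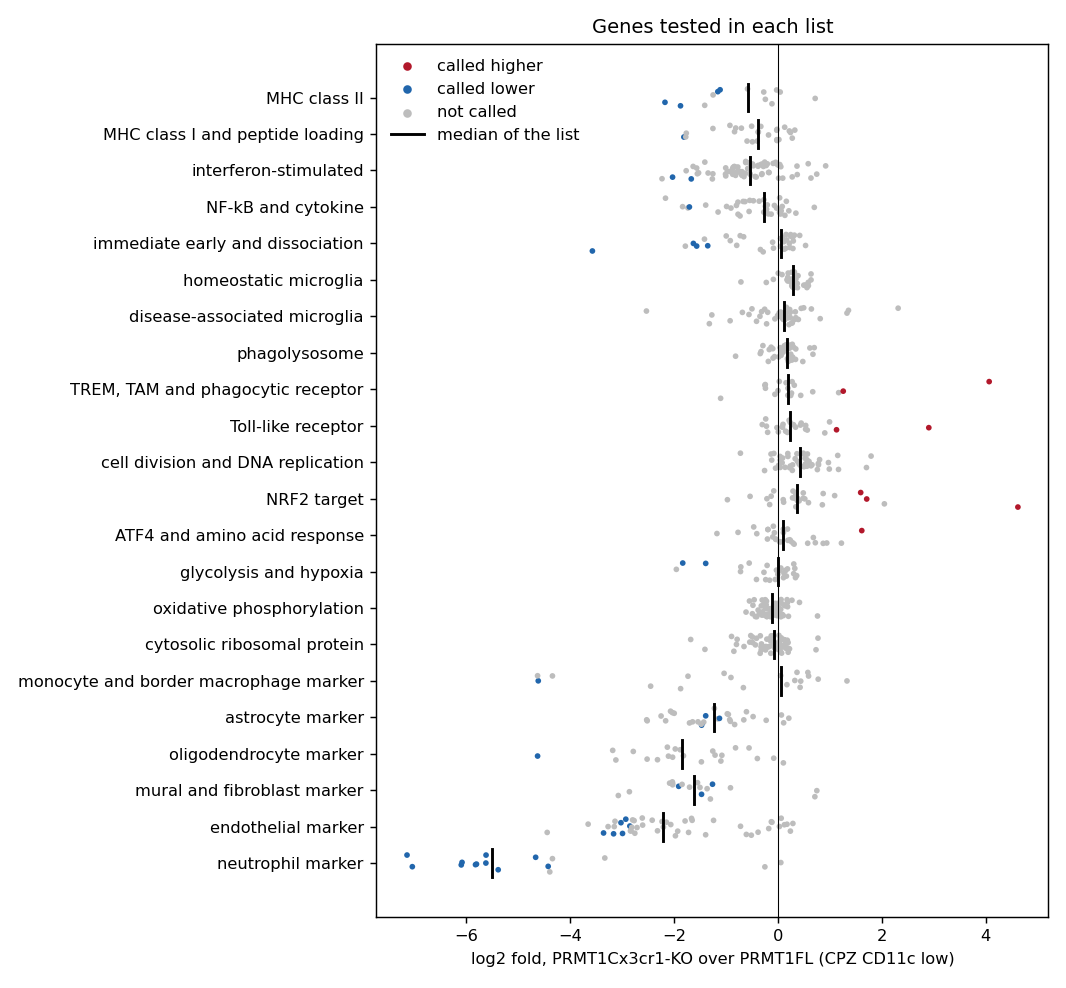
Log2 folds of PRMT1Cx3cr1-KO over PRMT1FL (horizontal) for the tested genes of 22 lists, each point a gene (red called higher, blue called lower, grey not called) and each black bar the list median. The neutrophil median lies at -5.50 and the endothelial one at -2.21, the MHC class II median at -0.59, and the microglial lists lie near 0.

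Among markers of cells other than microglia, neutrophil genes fell most in the PRMT1Cx3cr1-KO library. Sums of the monocyte and border macrophage, oligodendrocyte progenitor and lymphocyte lists were not lower there. The progenitor list summed to 650.8 RPM in PRMT1Cx3cr1-KO and 501.1 in PRMT1FL, and the lymphocyte list to 92.1 and 75.9. Most of the progenitor sum was Cspg4 (1807 and 1410 reads), which the study lists for phagocytic microglia. The progenitor median was -1.01, with 6 of 7 tested genes below 0. In PRMT1Cx3cr1-KO 6 of its 14 genes were at 0 reads, and in PRMT1FL 1. The lymphocyte median was -0.47, and Il7r had 183 and 100 reads. Of 16 neutrophil markers tested, 11 were called lower and 0 higher (68.8%, against 0.948%), and the median log2 fold was -5.50. It was -4.36 with the 9 tested genes at 0 reads in PRMT1Cx3cr1-KO set at their bound of 3 reads. Those 9 genes passed the filter, a mean over both libraries, only through PRMT1FL. The share called and the median therefore follow in part from the filter and only describe the list. S100a9, a calcium-binding protein of neutrophil cytosol, had 0 reads in PRMT1Cx3cr1-KO and 189 in PRMT1FL, at least 49.4-fold lower (limma adjusted p = 0.00344). It had 4 reads in PRMT1FL CPZ CD11c high, 47 and 78 in PRMT1Cx3cr1-KO and 89, 55 and 64 in PRMT1FL on normal diet. Both genotypes thus held the transcript on normal diet. Ltf, lactoferrin, had 0 and 176 reads (at least 46.0-fold lower) and Ngp, a granule protein, 5 and 322 (ratio 0.0198, 0.00639 to 0.0467, log2 fold -5.39 ± 0.343, SE, adjusted p = 0.00116). S100a8 had 1 and 128 reads, Mmp9 3 and 130, and Cd177 1 and 55. Retnlg, Lcn2, Mmp8, Hp and Camp each had 0 in PRMT1Cx3cr1-KO and 65 to 91 in PRMT1FL. Chil3, a chitinase-like protein of neutrophils and monocytes on the monocyte list, had 1 and 63 (-4.62, adjusted p = 0.0214). The 20 markers summed to 484.3 RPM in PRMT1Cx3cr1-KO and 943 in PRMT1FL, most of it Csf3r, which microglia express (1347 and 1656 reads, log2 fold 0.05, named after its values were seen). Without Csf3r the sum was 24.9 in PRMT1Cx3cr1-KO and 465 in PRMT1FL CPZ CD11c low, 31.7 in PRMT1FL CPZ CD11c high, 105.6 and 145.4 in PRMT1Cx3cr1-KO and 144.5 to 241.1 in PRMT1FL on normal diet. In PRMT1Cx3cr1-KO 13 of the 20 genes were at 0 reads and in PRMT1FL CPZ CD11c low none. S100a9, Ltf, S100a8 and Ngp were called whichever of the other 6 libraries was left out. Without PRMT1FL normal-diet replicate 3 the remaining 7 neutrophil genes and Chil3 were not called (adjusted p = 0.0607). Without replicate 2, Camp, Chil3, Retnlg and Cd177 were not, and without either PRMT1Cx3cr1-KO normal-diet library Retnlg and Cd177 were not.

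Vascular markers followed. Of 47 endothelial genes tested, 6 were called lower and 0 higher (12.8%, against 0.948%), 41 had folds below 0, and the median was -2.21. Cldn5, the tight junction claudin of the blood-brain barrier, had 15.1 normalised reads in PRMT1Cx3cr1-KO, 128 in PRMT1FL CPZ CD11c low, 17.5 in PRMT1FL CPZ CD11c high and 13.9 to 30.1 on normal diet, so PRMT1FL CPZ CD11c low alone was high (log2 fold -2.99, limma adjusted p = 0.0372). Abcb1a, the P-glycoprotein transporter, had 6 and 91 reads in PRMT1Cx3cr1-KO and PRMT1FL (-3.36, adjusted p = 0.0315). Esam, an endothelial adhesion molecule, had 5 and 68 (-3.17), Itm2a 9 and 103 (-3.02), Spock2 25 and 252 (-2.93) and the anion transporter Slco1a4 17 and 165 (-2.85). Mural and fibroblast markers had 3 of 18 called lower (16.7%, against 0.948%) and a median of -1.63. They were the pericyte receptor Pdgfrb (39 and 191 reads, -1.91), vitronectin, Vtn (92 and 328, -1.47), and Rgs5, a pericyte regulator of G proteins (106 and 326, -1.26). The endothelial list summed to 1411 RPM in PRMT1Cx3cr1-KO and 2267 in PRMT1FL CPZ CD11c low, against 1224 to 1587 in the other 6 libraries, and at most 2 of its 50 genes were at 0 in any library. Without PRMT1FL normal-diet replicate 2 or 3 none of these 9 genes was called (adjusted p from 0.0607 to 0.0774). Without PRMT1Cx3cr1-KO normal-diet replicate 1, Slco1a4, Itm2a and Rgs5 were called, and without replicate 2 Slco1a4 and Itm2a. By DESeq2 none of the 3 mural genes was called (adjusted p from 0.056 to 0.103), nor was Esam (0.126).

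Glial and neuronal markers leaned the same way. Astrocyte markers had 3 of 29 called lower (10.3%, against 0.948% of all genes tested) and a median of -1.23. Among them, besides Aldoc, was the lipid phosphatase gene Plpp3 (83 and 233 reads in PRMT1Cx3cr1-KO and PRMT1FL, log2 fold -1.13, limma adjusted p = 0.0327). On normal diet the median of the astrocyte list was 0.73, the opposite sign. The mural and fibroblast (0.78), oligodendrocyte progenitor (0.56), oligodendrocyte (0.54) and endothelial (0.27) medians were above 0 on normal diet as well. Those of the neutrophil (-0.12), neuron (-0.10) and ependymal (-0.13) lists were below 0. Hapln2, a link protein of nodes of Ranvier, with 0 and 32 reads (at least 8.36-fold lower), was the 1 of 22 oligodendrocyte markers called (4.55%). These markers had a median of -1.85. Their most abundant members, which microglia also express, were transferrin, Trf (0.10), and Cnp (-0.56, adjusted p = 0.0648), neither called. Oligodendrocyte progenitor markers had 0 of 7 called, with Cspg4 at 1807 and 1410 reads (0.71) and Ptprz1 at -0.50. Neuron markers had 1 of 7 called lower (14.3%), the noncoding RNA Meg3, with 0 and 25 reads, which falls outside the naming rule. Map1b was at -0.43 and Camk2a at -1.02. Gdf10, a secreted growth factor on none of the marker lists and named after its values were seen, had a log2 fold of -3.57 (adjusted p = 0.0315). Ependymal markers (Ttr at -0.46, Enpp2 at -1.26) and the other monocyte and border macrophage markers (median 0.05, Stab1 at 0.44, Siglec1 at 0.59) had no call. Il7r, on the lymphocyte list, was higher (183 and 100 reads, 1.21, adjusted p = 0.0275), and its normalised value of 173 lay below the 231 to 338 of normal diet, while Ccl5 was at -1.33 without a call. No call of Aldoc, Plpp3, Hapln2 or Meg3 held without any 1 of the normal-diet libraries other than PRMT1FL replicate 1 (adjusted p from 0.0535 to 0.0774). The calls of Il7r and Gdf10 were lost without PRMT1FL normal-diet replicate 2 or 3, and that of Gdf10 without PRMT1Cx3cr1-KO replicate 1 (0.0502). DESeq2 did not call Aldoc, Plpp3, Hapln2 or Meg3 (adjusted p from 0.126 to 0.184).

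**Figure D5:**
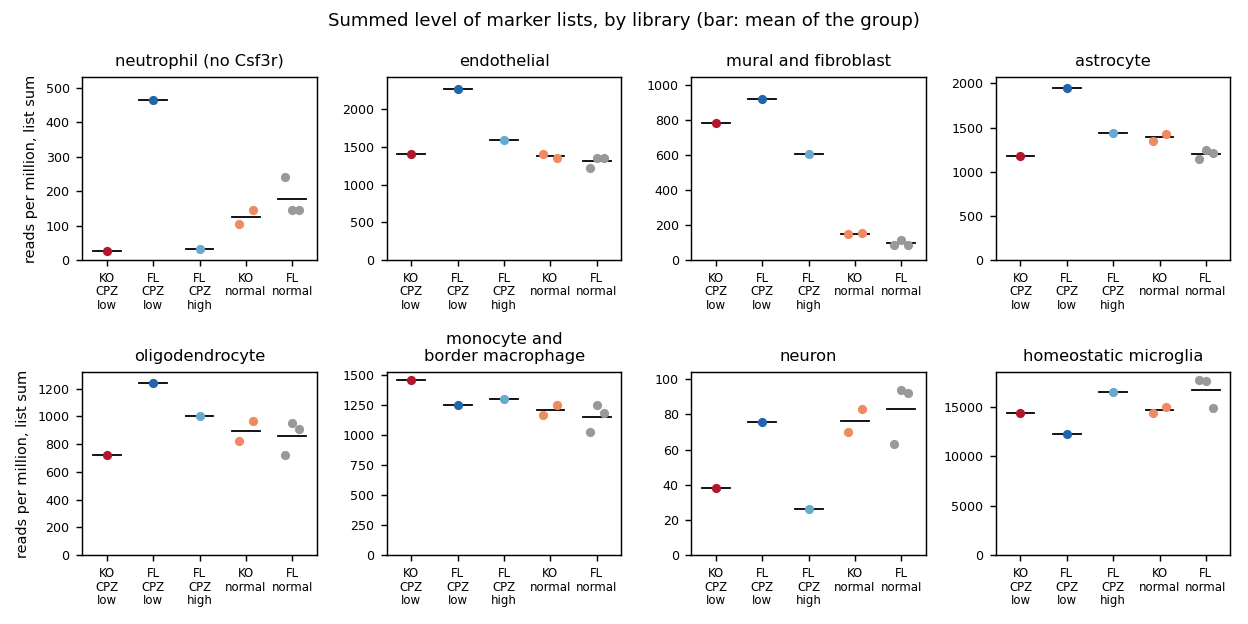
Summed RPM of 8 marker lists in each library (points), with linear axes from 0 and a bar at the mean of each group, where KO is PRMT1Cx3cr1-KO, FL is PRMT1FL, and low and high are the CD11c gates. PRMT1FL CPZ CD11c low has the highest neutrophil sum (465, against 24.9 in PRMT1Cx3cr1-KO) and endothelial sum (2267, against 1411), and the lowest homeostatic microglia sum (12230, against 14350).

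Set beside each other, the 2 CPZ libraries differ both in microglial genes and in these markers, and what part other cells have in the microglial gene differences was not tested. On normal diet 0 of the same 11712 genes were called between the genotypes in limma, where the lowest adjusted p was 0.365 and 964 genes had an unadjusted p below 0.05. Of these genes edgeR called 2 and DESeq2 called 3. Without PRMT1Cx3cr1-KO normal-diet replicate 2, limma called 12 (2 higher, 10 lower), and with no filter it called 10 higher of 16116 genes. Both comparisons come from 1 fit, and whether the genotype difference itself changed with diet was tested over all genes as an interaction. With an absolute log2 value over 1, the interaction passed for 52 of the 11712 genes, 7 more positive and 45 more negative on CPZ. Among named genes, mostly chosen by their CPZ fold, it passed for Treml4 and Plxna1 of the larger rises and for Nr4a3, H2-Q6, Kdm6b, Sdc4, Vegfa and S100a9 of the falls. H2-Eb1 (interaction log2 -1.67, adjusted p = 0.118), H2-Aa (-1.55, 0.0881), Trim16 (2.63, 0.181) and Tlr8 (2.58, 0.0852) did not pass. No interaction named here passed without PRMT1FL normal-diet replicate 2 or 3 or PRMT1Cx3cr1-KO replicate 2. Diet, CD11c gate and time label differ together between the libraries of that interaction and cannot be told apart.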

How the data were processed

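RNA was read from sorted mouse microglia in 8 libraries of 5 groups, assigned by the sample titles. The authors trimmed single-end reads, aligned them with Bowtie2, removed duplicates with SAMtools 0.1.19, quantified genes with HOMER and checked quality with FastQC 0.11.9. The paper names hg19, and the deposited coordinates are those of mouse GRCm38. The protocol marks strand, and the strand setting of the counting was not given in the sources used here. The deposited signal values are counts of reads times 1 factor per column, and division by that factor gave whole reads for 100% of values within 0.1. The authors also deposited log2 folds, p-values and adjusted p-values, which were not used, and 1 further table was not used. Of 25238 genes, 70 were left out whose reads in 2 tables lay over 1 read and 5% apart. For 2903 genes the normal-diet table held another transcript.

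Reads were scaled by median of ratios, and log2(normalised reads + 1) was fitted over all 8 libraries (R 4.3.3, limma 3.58.1, trended prior, two-sided, 3 residual and 5.79 prior degrees of freedom) for genes with a deposited mean of at least 10. The fit was tested on simulated data. Since the values proved to be scaled counts, edgeR 4.0.16 and DESeq2 1.42.0 were run on the recovered reads as alternatives, besides other scalings, filters, a pseudocount of 4 and leaving out each library. Ratios of reads carry exact 95% intervals, and 0 reads were set against 3 reads per library. Both cover counting error only, since reads carry no molecular identifiers. With duplicates removed, a position can hold few reads, and the highest density of any gene was 0.813 to 0.919 reads per base. Abundant genes such as Cx3cr1 (0.774) and Tnfaip3 (0.657) lay near that density, so their folds and intervals may be too narrow, which was not tested. GC content was known for 98.4% of tested genes. Nothing says that replicates came from separate animals, so p-values may measure technical spread only.

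Named genes were the 12 with the largest called fold in each direction among those with at least 50 reads in the higher library, the called members of 37 lists with at least 30 reads (or the 2 most abundant members where fewer than 2 were called), Prmt1, Cx3cr1, Itgax, Igf1 and the study's promoter set. Others are said to be named after their values were seen, and a few genes that the rule chose are not reported here. The members and lists were chosen with earlier results of these data known. Promoter sequences are from RefSeq (GRCm38.p6). Python 3.11.15, pandas 2.3.3, SciPy 1.17.1 and matplotlib 3.10.9 were used.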

Additional observations from a re-analysis of the deposited data

Results flagged for a closer look

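The genotype difference of 27 named genes differed between CPZ CD11c low and normal diet by an interaction test (limma, adjusted over 11712 genes). Over all 11712 genes, 52 passed with an absolute log2 value over 1, 7 more positive and 45 more negative on CPZ. Most named genes were chosen by their CPZ fold, which is part of this contrast, so the 27 only describe them. The difference was more positive on CPZ for Treml4 (3.44), Plxna1 (2.43), Sema4b (1.52) and P2ry10b (1.6) on the log2 scale. It was more negative for the neutrophil genes S100a9 (-6.67), Ltf (-6.31), Lcn2 (-5.70), Hp (-5.93), S100a8 (-5.23), Camp (-5.41), Ngp (-4.79) and Mmp9 (-4.55), and for genes of other brain cells Aldoc (-2.12), Plpp3 (-1.66), Abcb1a (-4.09), Esam (-4.0) and Gdf10 (-4.29). The others with a more negative difference were H2-Q6 (-2.14), Nr4a3 (-4.41), Dusp2 (-1.93), Vegfa (-2.56), Sdc4 (-1.94), Kdm6b (-1.83), Thbs1 (-1.96), Grk3 (-1.47), Nfkbib (-1.15), Rasgrp4 (-2.86) and Gdf10 (-4.29). The adjusted p of these interactions lay between 0.0134 and 0.0492, and none passed without PRMT1FL normal-diet replicate 2, PRMT1FL normal-diet replicate 3 or PRMT1Cx3cr1-KO normal-diet replicate 2. Without PRMT1Cx3cr1-KO normal-diet replicate 1, 5 passed. Each CPZ group is 1 library, and diet, gate and time label change together in this contrast.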

How the results depend on the processing

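The total of 167 called genes became 303 under quantile normalization, 300 with a pseudocount of 4, 289 with no filter (16116 genes tested, 15.2% of calls higher), 595 by edgeR on the recovered reads, 327 with a robust prior and 314 with a mean of at least 10 on normal diet. It ranged from 7 to 438 when 1 library was left out. The last of these filters, the same-transcript subset and the removal of the length and GC trend were chosen after seeing the data. DESeq2 called 144, TMM scaling gave 233 and removal of the length and GC trend 194 (22.2% higher). Of 71 named calls 71 held by edgeR, 58 by DESeq2, 62 with that trend removed and 34 with no filter, and no called gene changed direction. Besides those named in the report, DESeq2 did not call Irf4, Aldh1l2 and Cd177 (adjusted p from 0.0559 to 0.105).

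Some values that were not called changed sign. With the length and GC trend removed, the log2 fold of Canx was -0.0048, and the others were 0.08 for Tapbp, -0.10 for Tnfaip3, -0.05 for Marcks and 0.38 for Cebpb. Under TMM scaling they were 0.02 for Tapbp and 0.01 for Prmt9. Under total count scaling they were -0.04 for Irf8, -0.01 for Atp5a1, -0.08 for Tnfaip3, -0.02 for Carm1, -0.07 for Brd2, -0.05 for Ski, -0.01 for Trf and -0.06 for Csf3r. Under quantile normalization they were -0.18 for Irf8, -0.21 for Cx3cr1, -0.20 for Ctsb, -0.06 for Atp5a1, -0.31 for Tnfaip3, -0.17 for Marcks, -0.09 for Btg2, -0.23 for Brd2, -0.36 for Ski, -0.09 for Trf, -0.16 for Fscn1 and -0.21 for Csf3r. The cause of these changes was not tested. No paired analysis was possible because each CPZ group holds 1 library, so the groups compared share fewer than 2 replicate numbers.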

Other observations

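Besides the genes named in the report, Tfec, Zfp719, G2e3 and Rasa2 were among the 13 genes called higher in CPZ CD11c low cells whose 3 PRMT1Cx3cr1-KO libraries, on both diets, all lay above the 5 PRMT1FL libraries. Of the 56 genes called higher, 46 had a normal-diet genotype difference above 0, as had 49.9% of all genes tested. Of the 111 genes called lower, 48 had a normal-diet difference of the same sign and 63 (56.8%) one above 0.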
